A study of Mus musculus with 7 samples.

Results

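The genes of MHC class I presentation described here were 10 of the 57010 genes of the deposited table, taken by their symbols. They were H2-K1, H2-D1, H2-T23, B2m, Tap1, Tap2, Tapbp, Tapbpl, Erap1 and Nlrc5, and all 10 passed the filter on low counts. Polyadenylated RNA had been sequenced from Tim4+ resident macrophages of C57BL/6 mice, which had been sorted by surface CD11b, MHCII and Tim4 to a stated purity over 97%. There were 4 libraries from mice at day 12 after an injection of m204 MTO and 3 libraries from control mice in steady state. The day 12 titles name the peritoneal cavity as the source of the macrophages, and the steady-state titles name no site. The labels do not spell out MTO, peritoneal colorectal cancer is named in the series title, and no age, sex or vehicle injection is stated. The comparison asked how the RNA of these macrophages at day 12 differed from that in steady state.

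MHC class I molecules sit on nearly every nucleated cell and show peptides from inside the cell to CD8 T cells and natural killer cells. A heavy chain pairs with beta-2 microglobulin in the endoplasmic reticulum. Peptides cut by the proteasome are pumped in by the TAP transporter, trimmed by the aminopeptidase ERAP1 and exchanged under the editors tapasin and TAPBPR until a stable peptide is bound. The coactivator NLRC5 and interferon-activated factors drive transcription of many of these genes.

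Promoter windows were available from RefSeq (build GRCm38.p6) for 7 of the 10 genes, and the windows of 5 of them are shown. Those of H2-K1, H2-D1 and B2m hold the kappa B, interferon, TGACG and CCAAT letters together, and H2-T23 and Erap1 are the genes with a window that passed the test below. Each window runs 5′ to 3′ on the strand of its gene, with 250 bases before and 50 after the annotated start. They are chr17:34000298-34000597 (minus strand) for H2-K1, which has a second annotated start, chr17:35262844-35263143 (plus) for H2-D1, chr2:122147437-122147736 (plus) for B2m, chr17:36032652-36032951 (minus) for H2-T23 and chr13:74639603-74639902 (plus) for Erap1. Capitals mark matches on either strand to the searched letters given after the sequences.
H2-K1: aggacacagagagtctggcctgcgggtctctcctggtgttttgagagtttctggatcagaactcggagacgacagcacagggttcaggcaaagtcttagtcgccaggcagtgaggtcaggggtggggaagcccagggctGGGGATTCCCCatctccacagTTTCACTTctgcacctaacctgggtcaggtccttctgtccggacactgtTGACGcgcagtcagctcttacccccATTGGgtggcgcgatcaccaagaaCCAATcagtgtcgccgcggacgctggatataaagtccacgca
H2-D1: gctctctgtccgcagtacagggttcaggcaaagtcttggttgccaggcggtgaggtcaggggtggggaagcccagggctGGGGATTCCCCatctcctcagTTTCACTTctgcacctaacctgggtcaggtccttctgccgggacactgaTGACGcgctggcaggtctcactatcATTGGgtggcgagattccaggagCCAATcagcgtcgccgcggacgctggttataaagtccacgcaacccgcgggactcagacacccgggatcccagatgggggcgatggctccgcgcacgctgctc
B2m: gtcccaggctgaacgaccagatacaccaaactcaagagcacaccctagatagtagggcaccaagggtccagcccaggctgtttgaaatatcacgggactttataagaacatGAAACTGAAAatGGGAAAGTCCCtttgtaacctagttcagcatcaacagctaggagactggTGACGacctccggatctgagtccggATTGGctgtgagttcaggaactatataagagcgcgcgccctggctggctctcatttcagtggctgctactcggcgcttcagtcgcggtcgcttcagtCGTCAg
H2-T23: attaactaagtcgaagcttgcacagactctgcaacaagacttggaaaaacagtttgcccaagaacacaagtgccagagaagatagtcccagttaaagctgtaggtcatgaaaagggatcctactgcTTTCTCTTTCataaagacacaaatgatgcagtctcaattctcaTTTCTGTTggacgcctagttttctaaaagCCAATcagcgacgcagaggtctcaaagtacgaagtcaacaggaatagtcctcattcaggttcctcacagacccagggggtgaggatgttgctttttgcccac
Erap1: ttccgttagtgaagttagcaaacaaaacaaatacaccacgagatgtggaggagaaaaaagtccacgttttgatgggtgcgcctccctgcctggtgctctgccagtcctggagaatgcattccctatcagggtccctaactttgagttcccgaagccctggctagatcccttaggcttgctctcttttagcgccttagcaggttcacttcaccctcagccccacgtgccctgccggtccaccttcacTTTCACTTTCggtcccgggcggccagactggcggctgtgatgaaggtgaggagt

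The letters searched were GGG, any base, A, any 3 bases and CCC for a kappa B site, AANNGAAA and a longer form (GAAA, any 2 bases, GAAA) for an interferon response element, TGACG for the core of a cyclic AMP response element, and CCAAT for the box bound by NF-Y. They were chosen after the sequences had been seen, and the short interferon element lies inside the long one. The kappa B letters were found in the windows of H2-K1, H2-D1, B2m and Tap1, and in 5.12% of all 32851 promoter windows of the table. The short interferon element was in the windows of 5 of the 7 genes (B2m, Erap1, H2-D1, H2-K1 and H2-T23) and in 23.9% of all windows, and the long form in those of B2m, Erap1 and H2-T23 and in 3.44% of all windows. TGACG was in the windows of B2m, H2-D1, H2-K1 and Tap1, against 20.8% of all windows, and CCAAT in all of the 7 but that of Erap1, against 37.4%. The kappa B, short interferon, TGACG and CCAAT letters stood together in the windows of H2-K1, H2-D1 and B2m, and in 27 of all 32851 windows (0.0822%). The windows of H2-K1 and H2-D1 shown were 88.3% identical over 239 aligned bases. The window of Tap1 shared 275 bases with that of the immunoproteasome gene Psmb9, which is transcribed the other way from the same stretch. Matches describe the letters only, and binding was not measured.

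All 10 genes had a higher mean at day 12 than in steady state, and 4 of the 10 passed the test: H2-T23, Tapbpl, Erap1 and Nlrc5 rose by 1.55- to 1.86-fold. None fell (0 of 10 in edgeR's quasi-likelihood test, with 0 lower at an unadjusted p under 0.05 and 0 lower with DESeq2 or limma-voom). Over all 15981 genes tested, 20.3% passed an adjusted p of 0.05, 10.1% as higher and 10.2% as lower. The median log2 fold change was 0.71 over the 10 genes and 0.00309 over all genes tested. At an unadjusted p under 0.05, 8 of the 10 were higher. The 4 calls were near the threshold for Tapbpl and Nlrc5, and which genes passed changed with single libraries: 7 passed without day 12 replicate 3, 5 without day 12 replicate 4, 2 without day 12 replicate 1 or 2 or steady-state replicate 1, and 0 without steady-state replicate 2 or 3. In the fits with 0 calls, 5 and 7 genes were higher at an unadjusted p under 0.05 without steady-state replicates 2 and 3, DESeq2 called 3 and 5, and limma-voom called 0 and 0. With all 7 libraries DESeq2 called 7 of the 10 and limma-voom 2.

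**Figure D1:**
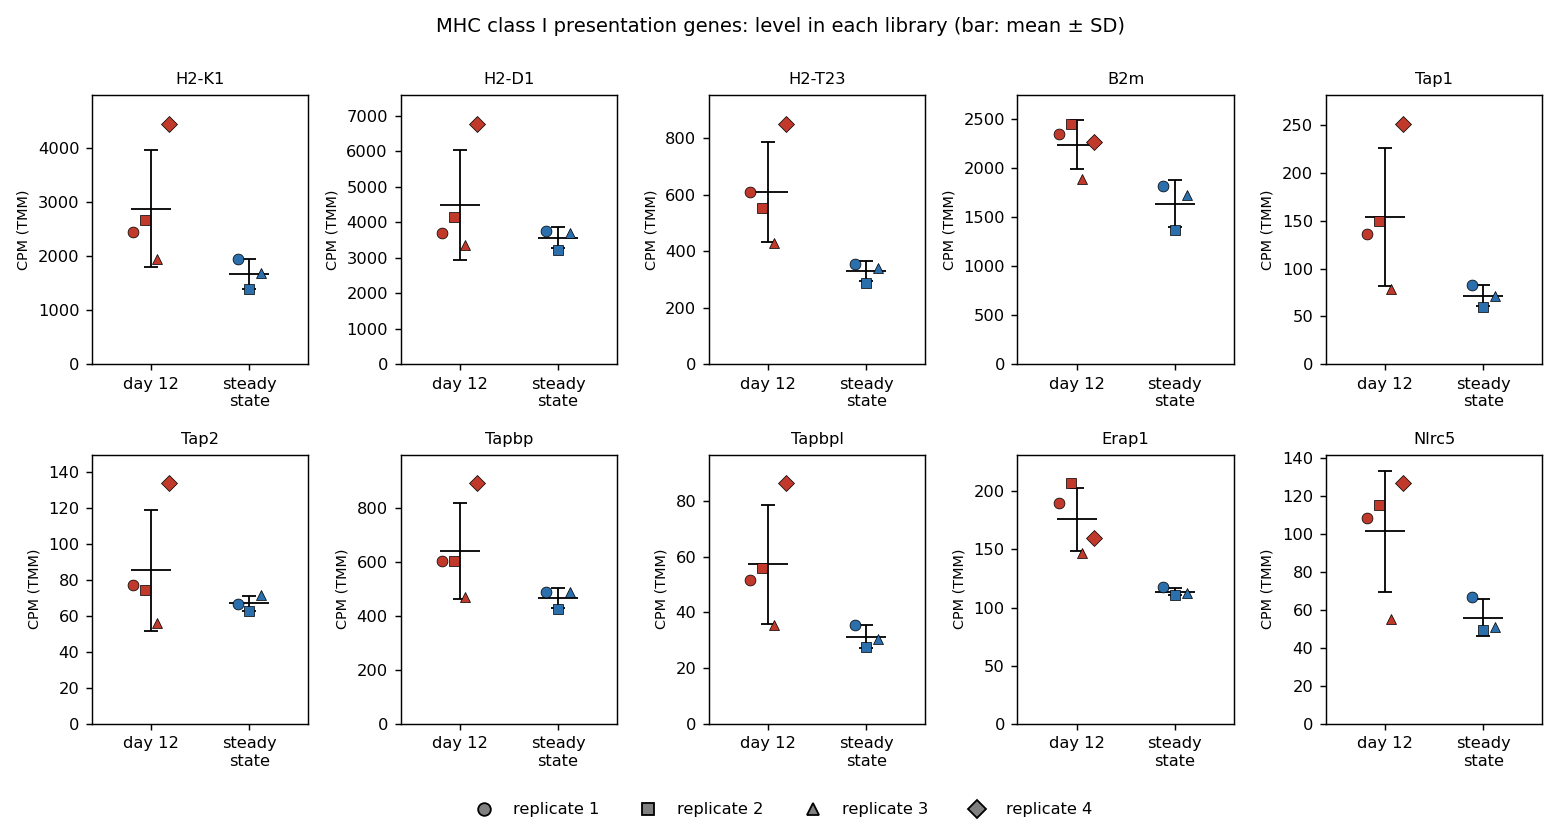
Level of each of the 10 genes in CPM (read counts scaled by library size, TMM-normalised; y axis from 0) in the 4 day 12 libraries (red) and the 3 steady-state libraries (blue), with the shape giving the replicate and the bar the mean ± SD. Day 12 replicate 3 is the lowest red point in all 10 panels and lies close to or within the blue points in most of them.

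Levels are given as CPM, read counts scaled by library size with TMM factors, and fold changes are of day 12 over steady state. H2-K1 (ENSMUSG00000061232, GRCm39 chromosome 17, 34214991 to 34219321, minus strand) encodes the classical heavy chain H-2K. It stood at 2458, 2668, 1950.3 and 4452 CPM in day 12 replicates 1 to 4, against 1948, 1387 and 1687 CPM in steady-state replicates 1 to 3. All 4 day 12 libraries lay above all 3 of steady state, although replicate 3 did so by about 2 CPM, within a group spread of 1089 CPM. The log2 fold change was 0.78 (SE 0.27) and did not pass (edgeR adjusted p = 0.0667), whereas it passed without day 12 replicate 3 (0.0302) or 4 (0.0476).

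H2-D1 (ENSMUSG00000073411, chromosome 17, 35481706 to 35486475, plus strand), the classical heavy chain H-2D, had 3682, 4139, 3355 and 6768 CPM at day 12, against 3766, 3216 and 3705 CPM in steady state. The groups overlapped: day 12 replicate 4 stood far above the rest, and replicates 1 and 3 lay below the highest steady-state library. The log2 fold change of 0.33 (SE 0.23) did not pass (edgeR adjusted p = 0.357), and it was 0.07 without day 12 replicate 4.

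H2-T23 (ENSMUSG00000067212, chromosome 17, 36340665 to 36343747, minus strand) encodes Qa-1, a non-classical heavy chain that presents signal peptides of other class I molecules to CD94/NKG2 receptors of natural killer cells. It had 611, 553, 428 and 851 CPM at day 12, against 357, 289 and 341 CPM in steady state. The groups did not overlap, and H2-T23 rose to 611 ± 178 CPM at day 12, against 329 ± 35.4 CPM in steady state (SD, n = 4 and 3; log2 fold change 0.89, SE 0.21, edgeR adjusted p = 0.0175). Leaving out steady-state replicate 2 or 3 ended the call (adjusted p = 0.0851 and 0.0648).

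B2m (ENSMUSG00000060802, chromosome 2, 121978167 to 121983564, plus strand), the light chain that all these heavy chains share, had 2348, 2446, 1881 and 2266 CPM at day 12, against 1814, 1366 and 1721 CPM in steady state. Its groups did not overlap either, and its day 12 libraries were closer together than those of any heavy chain gene relative to their mean (2235 ± 247 CPM, against 1634 ± 237 CPM in steady state). The log2 fold change of 0.45 (SE 0.15) fell just short (edgeR adjusted p = 0.0579), and B2m passed without day 12 replicate 3 (0.0392) or 4 (0.0449). Reads of heavy chain genes can be shared with near-identical copies, so their levels are uncertain. Of the distinct stretches of 100 bases (the read length) in annotated transcripts, 0.957% of those of H2-K1, 3.59% of H2-D1 and 3.15% of H2-T23 occur unchanged in a transcript of another gene, and 0% of those of B2m.

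Tap1 and Tap2 encode the partner chains of the TAP peptide pump. Tap1 (ENSMUSG00000037321, chromosome 17, 34406527 to 34416199, plus strand) had 137, 149, 78.5 and 252 CPM at day 12, against 83.1, 60.4 and 71.8 CPM in steady state. Its fold change of 2.15 (SE 0.35 on the log2 scale) was above that of the other 9 genes, but day 12 replicate 3 overlapped with steady state and the test did not pass (edgeR adjusted p = 0.0599). Without that library the log2 fold change was 1.32 and passed (0.00605). Tap2 (ENSMUSG00000024339, chromosome 17, 34422501 to 34435295, plus strand) had 77.1, 74.4, 55.8 and 134 CPM at day 12, against 66.5, 62.9 and 71.4 CPM in steady state. Day 12 replicate 3 was the lowest of all 7 libraries for Tap2 and replicate 4 the highest, and the log2 fold change of 0.35 (SE 0.26, edgeR adjusted p = 0.383) was 0.05 without replicate 4. Tap1 overlaps Psmb9 on the other strand by 212 bases.

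Tapbp encodes tapasin, which bridges TAP and the empty heavy chain, and Tapbpl encodes the related editor TAPBPR, which works outside that complex. Tapbp (ENSMUSG00000024308, chromosome 17, 34134873 to 34148266, plus strand) had 606, 603, 469.6 and 893 CPM at day 12, against 488, 425 and 491 CPM in steady state. Day 12 replicate 3 lay inside the steady-state range, and Tapbp did not pass (log2 fold change 0.46, SE 0.20, edgeR adjusted p = 0.139). Tapbpl (ENSMUSG00000038213, chromosome 6, 125200896 to 125208823, minus strand) rose to 51.6, 55.9, 35.3 and 86.3 CPM at day 12, against 35.6, 27.6 and 30.6 CPM in steady state. The groups overlapped at day 12 replicate 3 and steady-state replicate 1, and the call was close to the threshold (log2 fold change 0.87, SE 0.26, edgeR adjusted p = 0.0472). It was lost in 5 of the 7 fits with 1 library left out, namely all but those without day 12 replicates 3 and 4. Tapbpl lies wholly inside the span of Vamp1 on the other strand, which had 52.0 ± 2.65 CPM at day 12 and 44.4 ± 3.38 CPM in steady state. Whether reads were counted by strand is not stated.

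Erap1 (ENSMUSG00000021583, chromosome 13, 74787687 to 74841320, plus strand), the trimming aminopeptidase, had the lowest p of the 10 genes. It rose to 189.9, 207, 147 and 160.1 CPM at day 12, against 117, 111 and 113 CPM in steady state. The groups did not overlap and the steady-state libraries were tight (176 ± 27.4 CPM at day 12 and 114 ± 3.30 CPM in steady state; log2 fold change 0.63, SE 0.13, edgeR adjusted p = 0.00998). Without steady-state replicates 2 and 3 the adjusted p was 0.0539 and 0.0531. Day 12 replicate 4, the highest library for 8 of the other genes, was among the lower ones here. Erap1 overlaps Cast on the other strand by 834 bases, and Cast had 283 ± 61.6 CPM at day 12 and 325 ± 19.5 CPM in steady state.

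Nlrc5 (ENSMUSG00000074151, chromosome 8, 95160984 to 95253900, plus strand), the class I transactivator, rose to 108, 115, 55.1 and 126 CPM at day 12, against 66.9, 49.3 and 51.1 CPM in steady state. Replicates 1, 2 and 4 stood above the steady-state range and replicate 3 inside it. The log2 fold change was 0.86 (SE 0.26, edgeR adjusted p = 0.0494), and without day 12 replicate 3 it was 1.06 (adjusted p = 0.00177). The call was lost in each of the other 6 fits with 1 library left out.

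**Figure D2:**
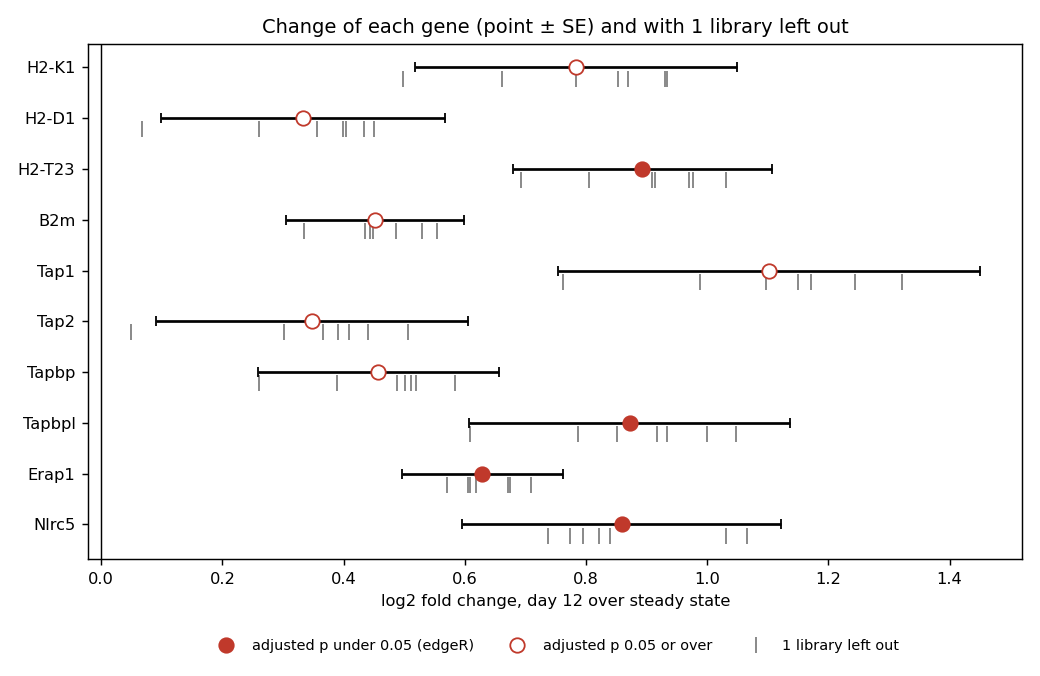
Log2 fold change of day 12 over steady state for the 10 genes (x axis), with the SE as the horizontal bar and the fits with 1 library left out as grey ticks. All ticks lie above 0, from 0.05 for Tap2 and 0.07 for H2-D1 to 1.32 for Tap1, and filled points mark the 4 genes past an adjusted p of 0.05.

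The groups did not overlap in 4 of the 10 genes (H2-K1, H2-T23, B2m and Erap1), each with all day 12 libraries above all steady-state libraries. Over all genes tested this was so in 16.5%, and the reverse order in 18.5%. The 10 genes also shared an order of libraries within each group. Day 12 replicate 3 was the lowest day 12 library in 10 of 10 genes, where it was the lowest in 23.9% of all genes tested, and day 12 replicate 4 was the highest in 8 of 10, against 34.8% of all genes tested. Among all genes called higher, replicate 3 was the lowest in 24.6% and replicate 4 the highest in 46.3%. Day 12 replicate 2 was the highest for B2m and Erap1. In steady state, replicate 2 was the lowest library in 10 of 10 genes, against 33.0% of all genes tested, and replicate 1 the highest in 8 of 10, against 33.9%. The median over the 10 genes of log2 CPM, centred on the mean of each gene over 7 libraries, was 0.27, 0.30, -0.24 and 0.81 in day 12 replicates 1 to 4 and -0.18, -0.57 and -0.38 in steady-state replicates 1 to 3. Day 12 replicate 3 was thus between steady-state replicates 1 and 3 by this median.

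**Figure D3:**
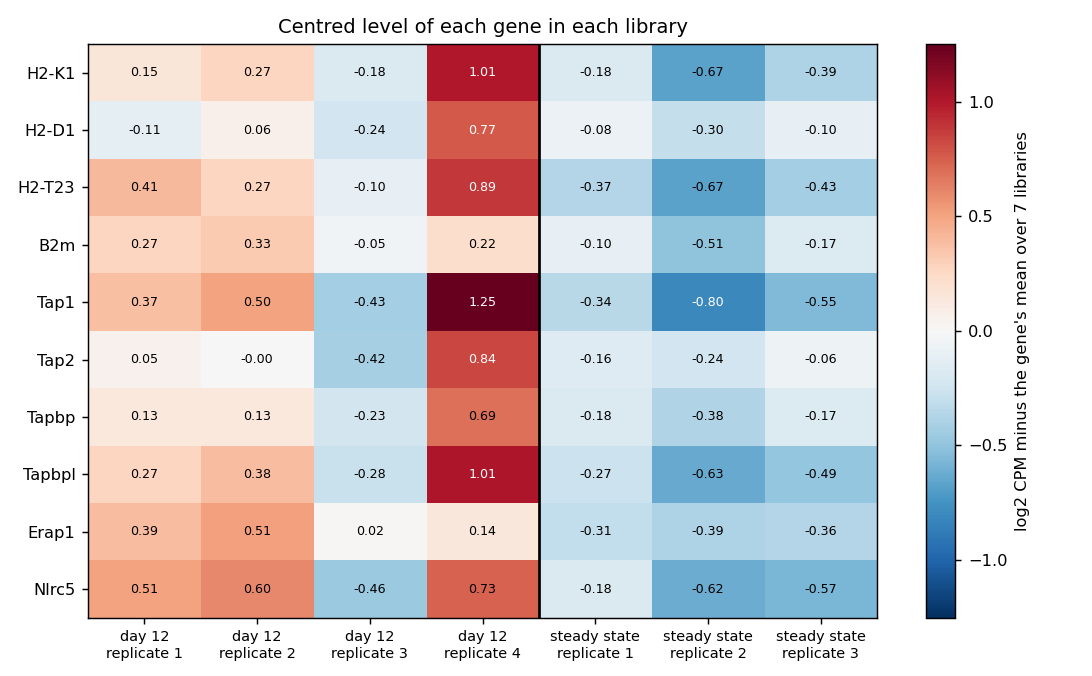
Log2 CPM of each gene (rows) in each library (columns) minus the mean of that gene over the 7 libraries, with red above and blue below that mean and the line between the day 12 and the steady-state libraries. The column of day 12 replicate 4 runs up to 1.25 for Tap1, and that of day 12 replicate 3 is below 0 in all genes but Erap1.

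Total counts were 32077050 to 38586694 per library, and TMM factors were 0.977 to 1.04. The 10 genes together took 0.833% to 1.59% of the counts of a day 12 library and 0.690% to 0.882% of those of a steady-state library. Genes of the mitochondrial genome took 0.858% of the counts in day 12 replicate 4, against 1.66% to 1.79% in the other day 12 libraries and 1.11% to 1.25% in steady state.

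The label of the sorted cells was checked against 11 markers of large peritoneal macrophages, all tested, of which 5 rose, 2 fell and 4 did not pass. Over all genes tested, 10.1% were higher and 10.2% lower. The summed level of the 11 markers was 32000 to 32710 CPM at day 12 and 28690 to 30400 CPM in steady state, most of it from Prg4 and Alox15, so that the sum says little of the other 9. Timd4, which encodes the sort marker Tim4, fell to 495 CPM on average at day 12, against 963 CPM in steady state (log2 fold change -0.96, SE 0.17, edgeR adjusted p = 0.00484), and Csf1r, the receptor for macrophage colony-stimulating factor, fell to 1505 CPM, against 2025 CPM in steady state (adjusted p = 0.0304). Adgre1 (F4/80) rose to 4734 CPM at day 12, against 2573 CPM in steady state (0.88, SE 0.14, adjusted p = 0.00239), and Gata6, Itgam, Mertk and Cd9 rose too.

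Of 9 monocyte and small peritoneal macrophage markers 7 were tested, and 2 rose and 1 fell, against 10.1% higher and 10.2% lower of all genes tested. The list summed to 7917 to 41950 CPM at day 12 and 154 to 188 CPM in steady state. Chil3 alone made 7622 to 41778 CPM at day 12, so that the sum says little of the other markers. Ly6c2 and Cx3cr1 were not tested and stayed at or below 0.755 CPM in every library. Plac8 rose to 25.7, 92.2, 4.10 and 143 CPM in day 12 replicates 1 to 4, against 1.07, 0.476 and 0.639 CPM in steady state (log2 fold change 6.51, SE 1.39, edgeR adjusted p = 0.0176). Its lowest day 12 value was in replicate 3 and its highest in replicate 4, as in 8 of the 10 class I genes. Chil3 had 34510, 7998, 41778 and 7622 CPM in day 12 replicates 1 to 4, with its highest value in replicate 3 and its lowest in replicate 4. Its replicates 1 and 3 stood far above replicates 2 and 4. Ccr2 fell (3.97 to 8.14 CPM at day 12 and 10.3 to 12.6 CPM in steady state, adjusted p = 0.0114). Fcgr1 had 2.703, 37.5, 0.947 and 40.2 CPM at day 12, against 50.4, 47.7 and 61.1 CPM in steady state, and did not pass (adjusted p = 0.421). Its day 12 libraries were split, with replicates 1 and 3 far below replicates 2 and 4.

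Of 9 B cell markers, 5 of the 8 tested rose (against 10.1% of all genes tested), with a summed level of 21.3 to 48.4 CPM at day 12 and 6.72 to 10.3 CPM in steady state and none at 0 in all libraries. The dendritic cell list of 8 genes summed to 65.7 to 379.8 CPM at day 12 and 29.7 to 55.0 CPM in steady state, of which Cd209a made 59.3 (replicate 4) to 373 CPM (replicate 3) at day 12. Its 3 tested genes did not pass edgeR's test. Cd209a (adjusted p = 0.0612) and Ccr7 (0.458 CPM on average at day 12 and 0.0937 CPM in steady state, adjusted p = 0.0549) lay above steady state in all 4 day 12 libraries, and Zbtb46 had 4.17 to 6.52 CPM at day 12 and 4.92 to 5.78 CPM in steady state (adjusted p = 0.954). Flt3, Xcr1, Clec9a and Itgae stayed at or below 0.280 CPM in every library, and Siglech was at 0. The part of other cells and of the lower mitochondrial share in the class I values was not tested, and in such sorted bulk samples fewer cells of a type and less RNA per cell cannot be told apart.

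Levels of different genes were compared per kilobase of annotated exon (GENCODE M21, by gene identifier). At day 12 the order by mean was B2m (2599 CPM per kb), H2-D1 (1739), H2-K1 (981), H2-T23 (211), Tapbp (177), Tap1 (28.1), Tapbpl (24.4), Erap1 (24.2), Tap2 (22.5) and Nlrc5 (11.9). The ranges over libraries overlapped between each pair of neighbours in this order except H2-K1 with H2-T23 and Tapbp with Tap1. In steady state the order was B2m (1899 CPM per kb), H2-D1 (1381), H2-K1 (569.8), Tapbp (129), H2-T23 (114), Tap2 (17.7), Erap1 (15.6), Tapbpl (13.3), Tap1 (13.1) and Nlrc5 (6.57). Here the neighbours Tapbp and H2-T23, and Tapbpl and Tap1, overlapped, and all other neighbours did not. The light and heavy chains thus stood well above the transporter, trimming and regulator genes in both groups.

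Ratios of counts within a library need no scaling between libraries, and 6 were tested by exact permutation (two-sided, all 35 assignments of 7 libraries, smallest possible p 0.0286), with Benjamini-Hochberg adjustment over the 6. None passed 0.05 after adjustment, and 2 reached the smallest unadjusted p. With 6 ratios, one that alone reached that smallest p could not have passed, so the lack of a pass says little. The ratio of H2-D1 to H2-K1 was 1.498, 1.55, 1.72 and 1.52 at day 12, against 1.93, 2.32 and 2.20 in steady state (log2 difference -0.45, exact p = 0.0286, adjusted p = 0.0857). Every day 12 library lay below every steady-state library, including day 12 replicates 3 and 4, which were far apart in level. The ratio of Tap1 to Tap2 was 1.77, 2.01, 1.41 and 1.88 at day 12, against 1.25, 0.960 and 1.01 in steady state, again without overlap (log2 difference 0.72, exact p = 0.0571, adjusted p = 0.0857). The ratio of B2m to the sum of H2-K1 and H2-D1 was 0.382, 0.359, 0.354 and 0.202 at day 12, against 0.317, 0.297 and 0.319 in steady state (log2 difference 0.02, exact p = 1, adjusted p = 1). Its day 12 libraries fell on both sides of steady state, with replicate 4 below.

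**Figure D4:**
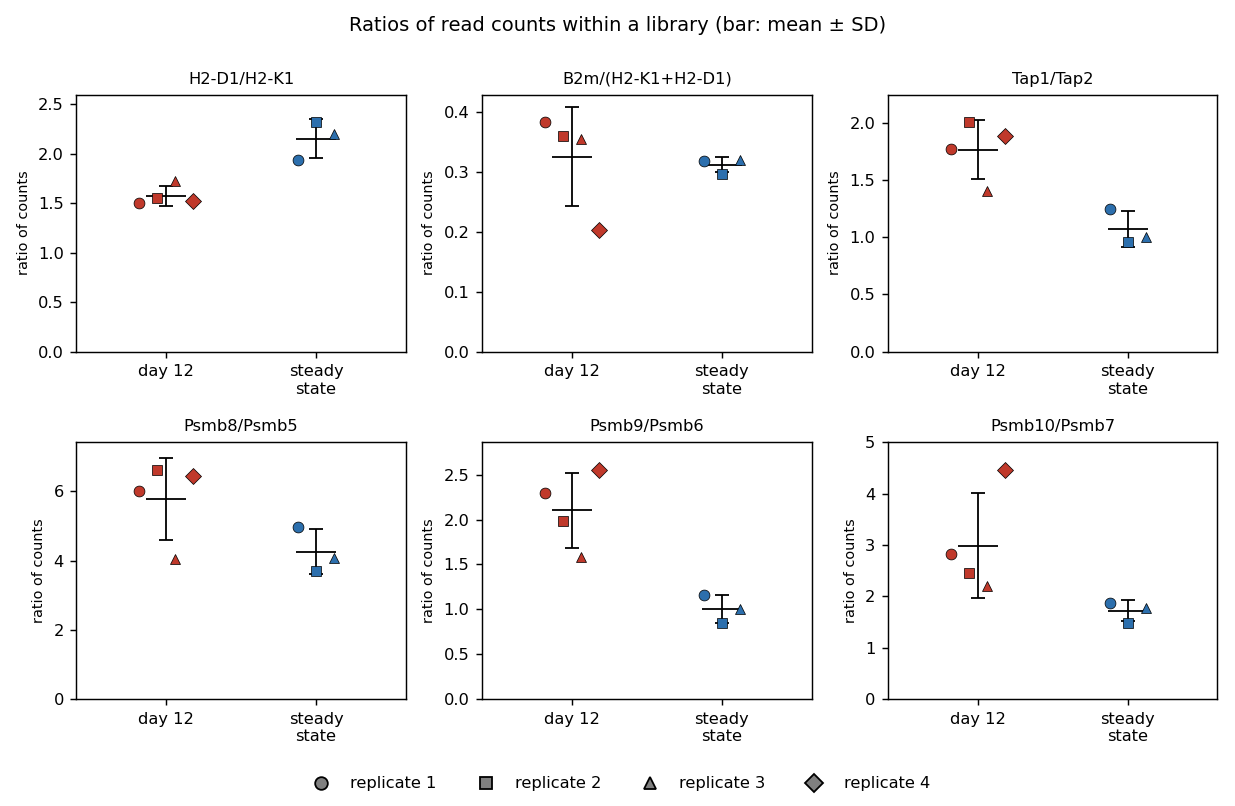
Ratio of read counts within each library (y axis from 0) for 3 pairs of class I genes and 3 pairs of immunoproteasome over constitutive proteasome subunits, in the 4 day 12 libraries (red) and the 3 steady-state libraries (blue), with the mean ± SD as the bar. The ratio of H2-D1 to H2-K1 lies between 1.498 and 1.72 at day 12 and between 1.93 and 2.32 in steady state, and that of Psmb9 to Psmb6 between 1.58 and 2.56 at day 12 and between 0.844 and 1.16 in steady state.

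The proteasome makes the peptides that class I molecules present, and interferon gamma swaps its catalytic subunits for those of the immunoproteasome. Of 7 immunoproteasome and activator genes, 4 rose (57.1%, against 10.1% of all genes tested) and none fell (0 lower in edgeR's test, 0 at an unadjusted p under 0.05 and 0 with DESeq2 or limma-voom), with a median log2 fold change of 0.92. Psme2, an activator subunit, had 44.1 ± 8.25 CPM at day 12 and 22.2 ± 2.62 CPM in steady state (log2 fold change 0.99, SE 0.17, edgeR adjusted p = 0.00352), and Psme1, its partner, had 137 ± 21.6 and 88.9 ± 9.40 CPM in those groups (0.62, SE 0.14, adjusted p = 0.0156). Psmb9, the neighbour of Tap1, rose to 79.5, 78.5, 54.4 and 137 CPM at day 12, against 46.4, 33.9 and 38.2 CPM in steady state (1.14, SE 0.29, adjusted p = 0.0227). Psmb10 rose (0.92, SE 0.27, adjusted p = 0.0449), and Psmb8 did not pass (0.92, SE 0.29, adjusted p = 0.0561) unless day 12 replicate 3 (0.0112) or 4 (0.0490) was left out. Day 12 replicate 3 was again the lowest day 12 library in all 5. The count of rising genes was 1 without steady-state replicate 2 or 3 and 2 with no filter on low counts. The constitutive subunits Psmb5, Psmb6 and Psmb7 did not pass (0 of 3 in edgeR's test, 1 higher at an unadjusted p under 0.05, 0 with DESeq2 and 0 with limma-voom), with log2 fold changes of 0.45, 0.04 and 0.10, the sign of that of Psmb6 being negative without day 12 replicate 4 (-0.12). The ratio of Psmb9 to Psmb6 was 2.29, 1.98, 1.58 and 2.56 at day 12, against 1.16, 0.844 and 1.01 in steady state (log2 difference 1.05, exact p = 0.0286, adjusted p = 0.0857). The ratio of Psmb10 to Psmb7 averaged 2.98 ± 1.02 at day 12 and 1.72 ± 0.203 in steady state (exact p = 0.0571, adjusted p = 0.0857), and that of Psmb8 to Psmb5 5.78 ± 1.19 and 4.25 ± 0.654 (exact p = 0.143, adjusted p = 0.171; n = 4 day 12 and 3 steady-state libraries in both).

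Of 17 further class I and class I-like heavy chain genes, 13 passed the filter, 1 rose (7.69%, against 10.1% of all genes tested) and 1 fell (against 10.2% of all genes tested), with a median log2 fold change of 0.60. The riser was Hfe, which binds the transferrin receptor and presents no peptide, at 171 ± 15.3 CPM at day 12 and 62.6 ± 2.64 CPM in steady state (log2 fold change 1.45, SE 0.11, edgeR adjusted p = 8.78e-05). The faller was Fcgrt, the neonatal Fc receptor, at 177 ± 19.7 CPM at day 12 and 271 ± 38.1 CPM in steady state (-0.62, SE 0.13, adjusted p = 0.00989), whose call was lost without steady-state replicate 3 (0.0564). The count of risers was 4 with DESeq2, 5 without day 12 replicate 3 and 2 without steady-state replicate 1 or with no filter. Of 7 peptidases, Lap3, a leucine aminopeptidase, rose (54.6 ± 7.08 CPM at day 12 and 23.1 ± 0.421 CPM in steady state, 1.24, SE 0.12, adjusted p = 0.000257) and Blmh, bleomycin hydrolase, fell (38.3 ± 5.08 CPM at day 12 and 51.6 ± 1.64 CPM in steady state, -0.43, SE 0.12, adjusted p = 0.0304). Thus 14.3% of the peptidases rose, against 10.1% of all genes tested, of which 10.2% fell. The call of Blmh was lost when any 1 steady-state library, day 12 replicate 1 or day 12 replicate 3 was left out, and 2 peptidases fell without day 12 replicate 4.

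Among 11 folding and loading helpers of the endoplasmic reticulum, the disulphide oxidase gene Ero1a rose (58.7 ± 7.97 CPM at day 12 and 34.6 ± 0.324 CPM in steady state, log2 fold change 0.76, SE 0.12, edgeR adjusted p = 0.0027) and none fell (0 lower, also at an unadjusted p under 0.05 and with DESeq2 or limma-voom). Thus 9.09% of the list rose, against 10.1% of all genes tested, of which 10.2% fell. The median of the list was 0.23, and the count of risers was 3 with DESeq2, 4 without day 12 replicate 4 and 2 without steady-state replicate 2. Of 9 genes of class I turnover and export, 3 fell (against 10.2% of all genes tested) and 0 rose (0 higher at an unadjusted p under 0.05, and 0 with DESeq2 and limma-voom). They included Derl1 of the retrotranslocation channel (242 ± 36.4 CPM at day 12 and 407 ± 37.0 CPM in steady state, -0.75, SE 0.14, adjusted p = 0.00503) and the ubiquitin ligase gene Marchf9 (0.767 ± 0.265 CPM at day 12 and 2.63 ± 0.390 CPM in steady state, -1.77, SE 0.32, adjusted p = 0.00503). Of 10 cross-presentation genes none passed, against 20.3% of all genes tested. The counts were 0 of 10 in edgeR's test, 2 higher at an unadjusted p under 0.05, 2 with DESeq2 and 0 with limma-voom. The cross-presentation genes with the lowest p were Ifi30, a lysosomal thiol reductase (0.78, SE 0.29, adjusted p = 0.0955), and the transcription factor gene Batf3 (1.21, SE 0.48, adjusted p = 0.117). Ifi30 passed without day 12 replicate 1 (edgeR adjusted p = 0.0472).

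Of 21 transcription factor and interferon signalling genes, 3 rose (14.3%, against 10.1% of all genes tested) and 2 fell (against 10.2% of all genes tested), with a median log2 fold change of -0.16. Irf1, an activator of class I and Nlrc5 promoters, rose to 254, 229.6, 149 and 386 CPM in day 12 replicates 1 to 4, against 104, 81.7 and 86.4 CPM in steady state (log2 fold change 1.49, SE 0.28, edgeR adjusted p = 0.00672). Its day 12 libraries had their lowest value in replicate 3 and their highest in replicate 4, as in 8 of the 10 class I genes, and did not overlap with steady state. Stat2, which carries the type I interferon signal, rose to 189, 173, 123 and 216 CPM at day 12, against 86.2, 68.9 and 88.5 CPM in steady state (1.11, SE 0.19, adjusted p = 0.00347). The 2 genes that fell encode receptor chains for interferons. Ifnar1 fell to 73.2 ± 4.03 CPM at day 12, against 136 ± 11.5 CPM in steady state (-0.89, SE 0.10, adjusted p = 0.000478), and Ifngr1 fell to 112 ± 12.6 CPM, against 158 ± 16.8 CPM (-0.50, SE 0.12, adjusted p = 0.0189). The call of Ifngr1 was lost without steady-state replicate 2 (0.0600) or 3 (0.0978) or day 12 replicate 2 (0.0504). The count of fallers was 6 when day 12 replicate 4 was left out and 1 when steady-state replicate 2 or 3 was.

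**Figure D5:**
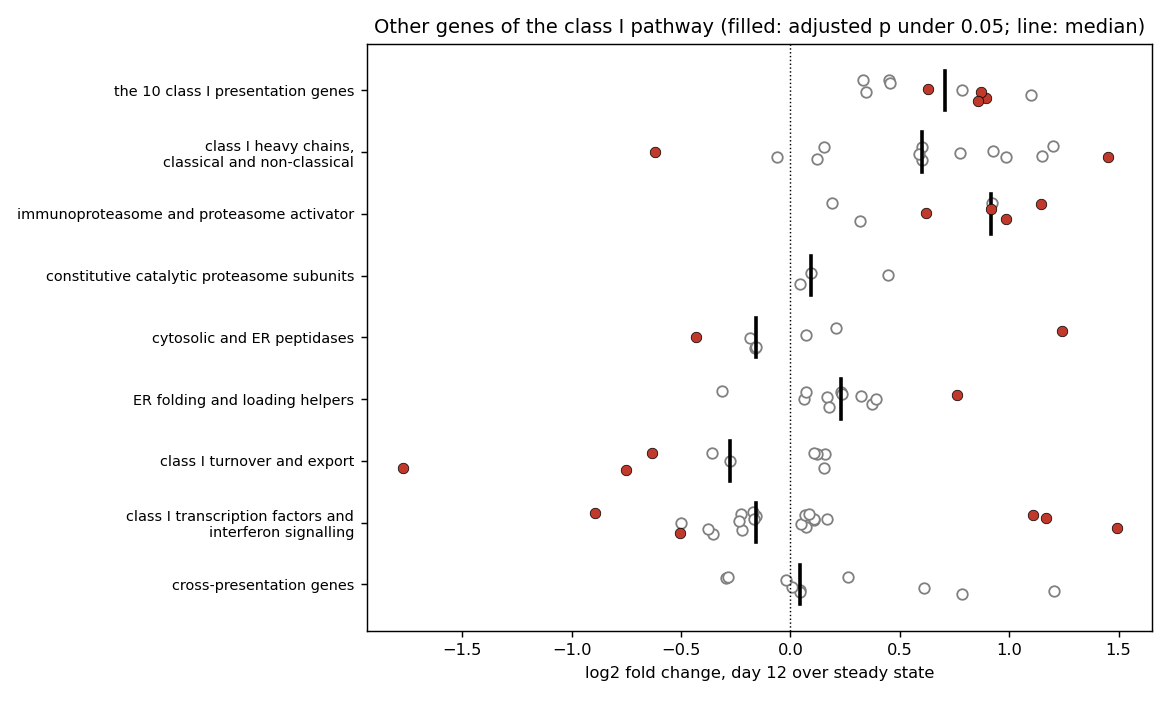
Log2 fold change of day 12 over steady state (x axis) for the 10 class I presentation genes and for each tested gene of 8 lists of the pathway (rows), with filled points past an adjusted p of 0.05 and a line at the median of each list. The medians run from -0.28 for turnover and export to 0.92 for the immunoproteasome and activator list.

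Over the 81 tested genes of these 8 lists, which leave out the 10 genes above, 10 rose (12.3%) and 7 fell, against 10.1% and 10.2% of all genes tested. The count of risers was 19 with DESeq2, which called 2098 of all genes higher, and 16 without day 12 replicate 3, where 1492 of all genes were called higher, but 6 without steady-state replicate 3, where 857 were. Other genes were ranked by the root mean square difference from the median centred profile of the 10 genes over the 7 libraries. Genes of the 8 lists and predicted or unnamed genes were left out, so a closer gene among them would not be named. The closest of the rest were Uba7 (0.0546 on the log2 scale), the activating enzyme for the ubiquitin-like protein ISG15, Agfg2 (0.0681) and Ube2l6 (0.0826), the conjugating enzyme for ISG15. Next came Parp10 (0.0904), a mono-ADP-ribosyltransferase, and Psme2b (0.109), a copy of Psme2. Uba7 had 171, 161, 119 and 246 CPM in day 12 replicates 1 to 4, against 114, 89.5 and 102 CPM in steady state. The likeness to the 10 genes is what chose these 5 and is given as a description. Of the 10 genes themselves, H2-K1 (0.101) and Tapbpl (0.102) were closest to that profile and Erap1 (0.295) farthest from it.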

How the data were processed

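Samples were grouped by their titles. Libraries were directional, poly-A-selected from 30 ng of RNA and read as single 100-nt reads, per the labels' protocols. The authors deposited raw counts for each gene, not normalised, with GRCm39 coordinates. The submitters' processing notes name featureCounts (Subread 2.0.6), STAR 2.7.11a, DESeq2 1.40.2 and SAMtools 1.10. Annotation release, strand setting and treatment of multi-mapping reads: not given in the sources used here. Such settings could change the values of heavy chain genes and of genes that overlap another on the other strand.

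Genes were tested with edgeR 4.0.16 in R 4.3.3 (robust quasi-likelihood) on all those kept by filterByExpr (minimum count 10, minimum total 15), with TMM factors, a group term, and Benjamini-Hochberg adjustment at 0.05 over 15981 genes. DESeq2 1.42.0, limma-voom (limma 3.58.1), other filters and scaling, the replicate block and leaving out each library were alternatives. The SE is the log2 fold change divided by the root of its F. Spread between libraries, which may be partly technical, is all that the p-values measure. The protocol text states 3 biological replicates a condition, but 4 titles are of day 12. No 2 libraries held identical counts. The procedure was tested on simulated counts. The likeness measure used log2 CPM with a prior count of 2 and genes of at least 5 CPM on average. Members, genes of the pathway lists and predicted or unnamed genes were left out of its ranking.

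Named genes were the 10 members, per pathway list and direction the 2 called genes of lowest p (the 2 with the lowest p where none was called), the proteasome subunits of the ratios and the 5 genes of most alike pattern. Vamp1 and Cast, the overlapping genes, and the markers named were chosen after their values were seen. The members and lists were chosen with earlier results of these data known. No symbol matched Nrdc or Hm13, which are not used here. Marker lists of T cells, NK cells, neutrophils, eosinophils and mast cells, mesothelial and stromal cells and intestinal epithelial cells summed to at most 3.63 CPM in any library. The sums at day 12 lay above those in steady state for NK cells (0.583 to 1.28 against 0.0639 to 0.119 CPM) and mesothelial and stromal cells (1.16 to 1.48 against 0 to 0.224). So did those of intestinal epithelial cells (2.70 to 3.63 against 0.616 to 0.958) and neutrophils (1.72 to 3.48 against 1.01 to 1.405). The sums of T cells and of eosinophils and mast cells overlapped between the groups.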

Additional observations from a re-analysis of the deposited data

Results flagged for a closer look

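Among 44 results checked in the 4 day 12 libraries, 3 had a sample far from the others, where chance alone flags about 1 in 20. The ratio of B2m to the sum of H2-K1 and H2-D1 was 0.202 in day 12 replicate 4 and 0.354 to 0.382 in the other day 12 libraries. Psmb5 stood at 40.1 CPM in day 12 replicate 4 and at 23.3, 23.7 and 23.9 CPM in day 12 replicates 1 to 3. Marchf9 stood at 0.371 CPM in day 12 replicate 1 and at 0.905, 0.921 and 0.871 CPM in day 12 replicates 2 to 4.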

How the results depend on the processing

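No member changed direction under any alternative, and no call of a member changed with DESeq2's size factors in place of TMM. The number of members called higher was 2 with no filter, 2 with limma-voom, 2 with the replicate block and 7 with DESeq2, and 0 to 7 with 1 library left out. With no filter, Tapbpl (0.86) and Nlrc5 (0.85) no longer passed, and with limma-voom the same 2 genes (0.81 and 0.80) did not. With a filter of 1 CPM in 3 libraries, B2m passed (0.49). With DESeq2, H2-K1 (0.79), B2m (0.46) and Tap1 (1.11) passed, and 19 pathway genes were called higher. Deviations from the group mean correlated at -0.141, 0.00775 and 0.203 between same-numbered libraries of the groups (replicates 1, 2 and 3). Between libraries of unlike number the correlations ran from -0.201 to 0.191. With so few libraries these values cannot decide whether the numbers pair them. With the replicate block, Tapbpl (0.59) and Nlrc5 (0.68) did not pass, 13 pathway genes were called lower, 4278 genes were called in all, and Psmb6 reversed (-0.12). Replicate 4 exists only at day 12, so its own block term absorbs it. The group difference of the block fit therefore rests on replicates 1 to 3 of each group, and the fit is not separate from leaving out day 12 replicate 4. With 1 library left out, 1761 to 4599 genes were called in all, 857 to 2188 higher and 904 to 2411 lower, and in the pathway lists 6 to 16 higher and 4 to 14 lower. Member log2 fold changes then ran from 0.50 to 0.93 for H2-K1, 0.07 to 0.45 for H2-D1, 0.69 to 1.03 for H2-T23, 0.34 to 0.55 for B2m, 0.76 to 1.32 for Tap1, 0.05 to 0.51 for Tap2, 0.26 to 0.58 for Tapbp, 0.61 to 1.05 for Tapbpl, 0.57 to 0.71 for Erap1 and 0.74 to 1.06 for Nlrc5, and Psmb6 ran from -0.12 to 0.13. The log2 difference of B2m/(H2-K1+H2-D1) ran from -0.075 to 0.23, with -0.075, -0.05 and -0.04 without day 12 replicates 1, 2 and 3 and -0.02 without steady-state replicate 2. That of the other ratios ran from -0.52 to -0.39 for H2-D1/H2-K1, 0.64 to 0.83 for Tap1/Tap2, 0.94 to 1.19 for Psmb9/Psmb6, 0.54 to 0.88 for Psmb10/Psmb7 and 0.33 to 0.59 for Psmb8/Psmb5, and 1 library fewer leaves too few assignments for an adjusted p under 0.05. The cause of these changes was not tested. A count of 3 is 0.0777 to 0.0935 CPM, far below every member.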
